A study of Mus musculus with 56 samples.

Results

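The antioxidant genes controlled by Nrf2 are described here in mouse mammary tumors. The set holds 9 genes chosen by name, of which 8 had a named probe set and 7 were among the 12508 genes tested. They are the regulators Nfe2l2 and Keap1, the cystine transporter gene Slc7a11, Gclc and Gclm for the 2 subunits of glutamate-cysteine ligase, Txnrd1 for thioredoxin reductase 1, Srxn1 for sulfiredoxin 1, Nqo1 for NAD(P)H quinone dehydrogenase 1, and G6pdx for glucose-6-phosphate dehydrogenase. Nrf2, the protein product of Nfe2l2, is a transcription factor that cells keep at low levels by destroying it. Keap1 is the sensor that binds Nrf2 and hands it to a ubiquitin ligase, and oxidants or electrophiles that modify Keap1 let Nrf2 accumulate. Nrf2 then pairs with a small Maf protein on antioxidant response elements and drives enzymes of glutathione synthesis, thioredoxin reduction, quinone reduction and NADPH supply, which can protect normal tissue from oxidants and in many tumors favour survival under stress. Much of this control acts on the protein and not on the transcript, so transcript levels of the target genes are a common array readout of the pathway.

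Expression was measured in 56 mouse mammary tumors on Affymetrix 3' arrays. Each tumor grew from a p53-null mammary fragment that had itself not been irradiated and was placed in an inguinal mammary fat pad of a female BALB/c host. All hosts had lost their own mammary epithelium at 3 weeks of age, and irradiation or sham irradiation of the host took place 3 days before transplantation. Wild-type hosts gave 23 tumors after irradiation and 9 after sham treatment, and Tgfb1 heterozygote hosts gave 18 after irradiation and 6 after sham treatment. Every fragment lacked p53 in all 4 groups. Tgfb1 encodes the cytokine TGF-beta 1, and the labels name neither the altered allele of the heterozygote hosts nor the radiation dose, nor which fragments came from one donor. The question asked here was whether the antioxidant genes of a tumor differed with the irradiation of its host, within each host genotype. Values are log2 expression (a difference of 1 is a doubling of signal). Probe sets of 1 gene were ranked by brightness, and levels of different genes were not compared.

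The 8 measured genes had 18 probe sets under their symbols, and G6pdx had none and was not analysed further. The probe set with the highest mean over the 56 arrays stood for its gene. The filter on dim probe sets asked for 6 or more arrays above 5.83, the median over the whole table. Slc7a11 failed it, with 1 of 56 tumors above that median. In the GRCm38.p6 annotation Nfe2l2 (probe set 1416543_at) lies at chr2:75675513-75704663, Keap1 (1450746_at) at chr9:21229730-21239332, Slc7a11 (1420413_at) at chr3:50364936-50499087, Gclc (1424296_at) at chr9:77754535-77794489, Gclm (1418627_at) at chr3:122245487-122267215, Txnrd1 (1421529_a_at) at chr10:82833951-82897724, Srxn1 (1426875_s_at) at chr2:152105524-152111376 and Nqo1 (1423627_at) at chr8:107388225-107403205.

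The antioxidant response element has the core TGACNNNGC, where N is any base. RefSeq promoter windows of GRCm38.p6, from 250 bases before to 50 after a gene start, were searched for it on both strands. Of the 8 listed genes with a window, 5 held the core (Nfe2l2, Gclm, Txnrd1, Srxn1 and G6pdx), as did 3781 of 27025 genes and 12.4% of 32851 windows. The related sequence TGANTCAGC, which can overlap the core, was in the window of Srxn1 and in 1.19% of all windows. The stretches around the matches are printed to show what the core looks like where a listed gene holds it. Capitals mark the match, and each runs 5′ to 3′ on the gene's own strand.
Nfe2l2: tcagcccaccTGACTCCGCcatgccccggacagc
Gclm: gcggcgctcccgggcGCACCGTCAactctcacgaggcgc
Txnrd1: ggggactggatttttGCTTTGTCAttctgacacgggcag
Srxn1: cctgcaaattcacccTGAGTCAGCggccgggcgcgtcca
G6pdx: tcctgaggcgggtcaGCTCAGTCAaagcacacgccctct
They lie at chr2:75704880-75704913 (minus strand), chr3:122245408-122245446 (plus), chr10:82859099-82859137 (plus), chr2:152105464-152105502 (plus) and chrX:74428914-74428952 (minus). The matches begin 240, 134, 92, 45 and 57 bases before the start that RefSeq's window uses. For Gclm and Txnrd1 that start lies inside the gene span given above, and for the others at its 5′ edge. In Gclm, Txnrd1 and G6pdx the core reads on the opposite strand. Srxn1 is shown for the related sequence. A match of letters does not show that Nrf2 binds there, and windows without one (Keap1, Nqo1 and Slc7a11) say nothing about binding elsewhere.

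The array set has features that bear on the results. Array medians were 5.92 to 6.00 in wild-type and 5.57 to 5.71 in heterozygote hosts, so host genotypes were treated as normalized separately and levels were compared only within a genotype. The 18S ribosomal RNA control averaged 12.74 ± 0.90 in irradiated and 11.28 ± 1.78 in sham-irradiated wild-type hosts (SD, n = 23 and 9, exact two-sided permutation p = 0.00444, adjusted over 14 control and marker measures 0.0311). It was below 11 on 2 irradiated and 4 sham arrays of wild-type hosts and on 2 irradiated and 1 sham arrays of heterozygote hosts. Alas2, the 1 measured gene of the erythroid list, also differed (5.71 ± 0.36 in irradiated and 7.37 ± 2.20 in sham wild-type hosts, exact permutation p = 0.000169, adjusted 0.00237). In heterozygote hosts 0 of 14 measures passed after adjustment. The lowest p there belonged to the gap between 3' and 5' control probe sets for Actb and Gapdh, a sign of RNA integrity, which averaged 0.273 ± 0.108 in irradiated and 0.405 ± 0.167 in sham-irradiated hosts (SD, n = 18 and 6, exact permutation p = 0.0297, adjusted 0.388). The mean of 10 epithelial markers, all of them measured, fell into clusters, with 7 wild-type tumors at 6.83 to 10.14 and the other 25 at 11.42 to 12.53, and 4 heterozygote tumors at 9.13 to 9.89 and the other 20 at 10.94 to 12.32. The low tumors came from 5 irradiated and 2 sham wild-type hosts and from 2 irradiated and 2 sham heterozygote hosts. In bulk tumor RNA, fewer cells of a type and less RNA per cell cannot be told apart.

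No listed gene passed the test for host irradiation in either host genotype, and the log2 fold changes pointed both ways. In wild-type hosts 0 of the 7 tested genes passed an adjusted p of 0.05 (limma, Benjamini-Hochberg over 12508 genes), where 0% of all genes did. The log2 fold change was positive for 4 and negative for 3 (49.3% of all genes were positive), with a median of 0.06 against -0.003 for all genes. In Tgfb1 heterozygote hosts again 0 of 7 passed (0% of all genes), 2 were positive and 5 negative (51.8% of all genes were positive), and the median was -0.08 against 0.009. Averaged over host genotypes 0 of 7 passed, against 0.00799% of all genes, and 3 were positive (50.4% of all genes), with a median of -0.01. At an unadjusted p under 0.05 there was 1 of 7 genes in wild-type hosts (7.07% of all genes), 0 of 7 in heterozygote hosts (5.84%) and 0 of 7 on average (7.77%). The wild-type and heterozygote results come from different tumors, while the average uses both.

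The intervals show what size of change these arrays leave room for. In wild-type hosts the 95% interval lay within a 1.5-fold change in either direction for 5 of 7 genes, a property shared by 65.1% of all genes tested. In heterozygote hosts this held for 4 of 7 genes (54.8% of all genes) for the average of both for 6 of 7 (76.4%), and for the difference between genotypes for 1 of 7 (36.2%). The interval extended past 1.5-fold for Nfe2l2 and Nqo1 in wild-type hosts and for Gclc, Srxn1 and Nqo1 in heterozygote hosts.

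**Figure D1:**
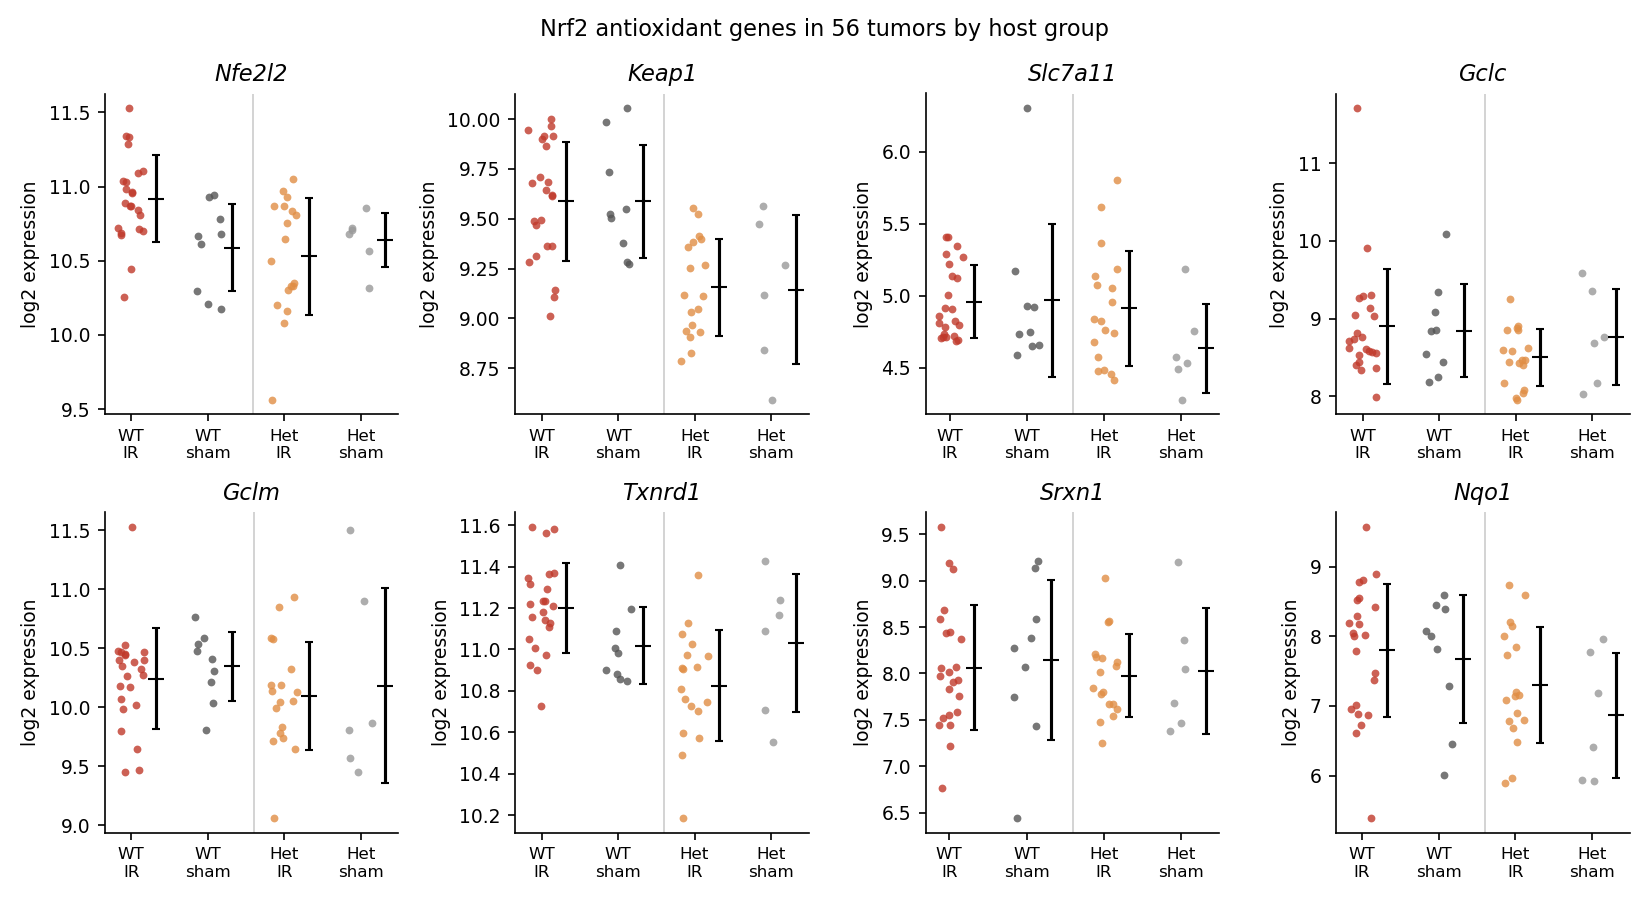
Log2 expression of the 8 measured genes (vertical axes, each with its own range) in tumors of irradiated (IR) and sham-irradiated wild-type (WT) and Tgfb1 heterozygote (Het) hosts. Points are tumors, bars the mean ± SD (n = 23, 9, 18 and 6), and a grey line parts the host genotypes, whose levels are not compared. Irradiated and sham points overlap in every panel within a genotype, and 1 irradiated wild-type tumor stands apart for Gclc at 11.71.

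**Figure D2:**
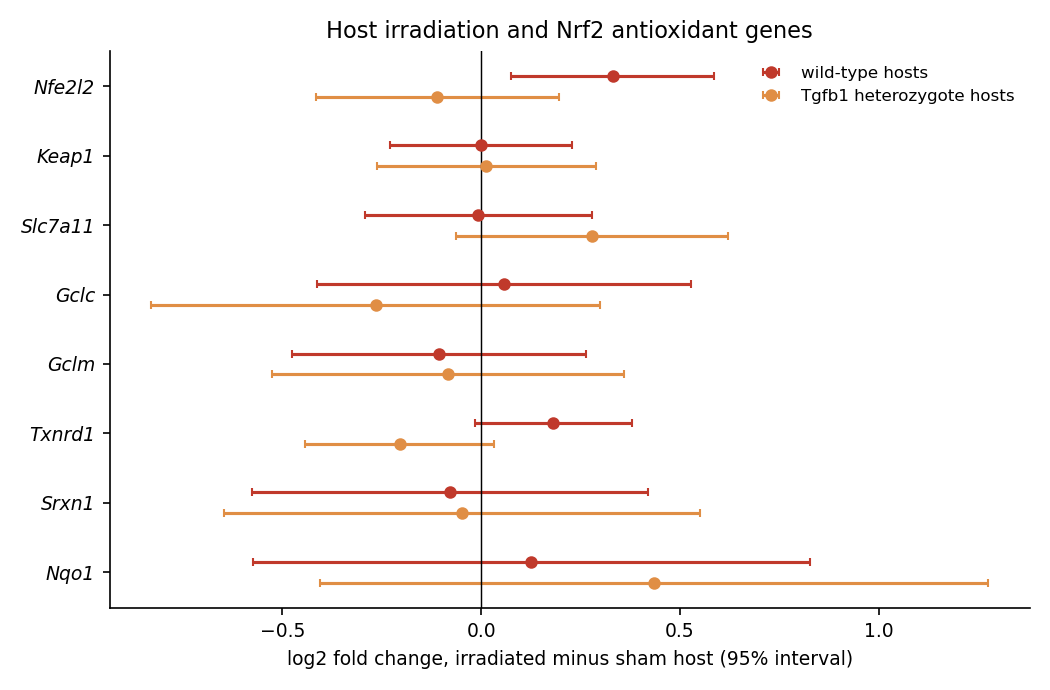
Log2 fold change of each gene, irradiated over sham (horizontal axis, points with 95% intervals) in wild-type (red) and Tgfb1 heterozygote hosts (orange). The interval of Nfe2l2 in wild-type hosts, 0.08 to 0.59, is the one that does not include 0, and its adjusted p was 0.577.

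Among the regulators, Nfe2l2 had the lowest p of the 7 listed genes tested in wild-type hosts and did not pass. Its level was 10.25, 10.89 and 11.53 (lowest, median and highest) in irradiated and 10.17, 10.67 and 10.94 in sham-irradiated wild-type hosts. The groups overlapped, with 21 of 23 irradiated tumors above the sham median and 11 of 23 above every sham tumor. Means were 10.92 ± 0.29 and 10.59 ± 0.29 (SD, n = 23 and 9), and the log2 fold change was 0.33 ± 0.13 (SE, unadjusted p = 0.0120, adjusted p = 0.577). In heterozygote hosts the values were 9.56, 10.57 and 11.05 in irradiated and 10.32, 10.69 and 10.86 in sham tumors, so the irradiated tumors spread on both sides of the sham tumors, 5 above all of them and 5 below. Means there were 10.53 ± 0.39 and 10.64 ± 0.18 (SD, n = 18 and 6), and the log2 fold change was -0.11 ± 0.15 (SE, adjusted p = 0.961).

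The Nfe2l2 difference in wild-type hosts moved with the 18S control. With 18S as a covariate the log2 fold change was 0.13 (limma unadjusted p = 0.312), and 0.15 once the 9 low arrays were left out (unadjusted p = 0.327). Across the 32 wild-type tumors, centred on their group means, Nfe2l2 and 18S had a Pearson's r of 0.57 and a Spearman's rho of 0.61 (permutation p adjusted over 98 relations 0.0178 and 0.0111), and r was 0.58 without the 2 tumors of the most extreme 18S value. Among the 25 of high epithelial score r was 0.64 (adjusted p = 0.229). Across the 24 heterozygote tumors r was 0.29 and rho 0.24 (adjusted p = 0.507 and 0.729). The 18S values were unevenly spread in wild-type hosts, with irradiated replicate 59 and sham replicates 60, 61, 64 and 65 at 9.28 to 9.62. Leaving out 2 tumors does not remove that low set. The part of 18S in the difference between irradiated and sham hosts was not tested further. A second, dimmer Nfe2l2 probe set lay below 5.83 on all 56 arrays and correlated with the first at 0.06 in wild-type and 0.44 in heterozygote hosts.

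Keap1, whose protein holds Nrf2 in check, showed a log2 fold change near 0 in both genotypes. Irradiated wild-type hosts had 9.01, 9.62 and 10.002 and sham-irradiated ones 9.27, 9.52 and 10.06. The log2 fold change was -0.0007 with a 95% interval of -0.23 to 0.23 (adjusted p = 0.9998). In heterozygote hosts the values were 8.78, 9.12 and 9.55 in irradiated and 8.59, 9.19 and 9.57 in sham tumors, and the log2 fold change was 0.01 (95% interval -0.26 to 0.29, adjusted p = 0.995). A dimmer second probe set, which correlated with the first at 0.38 in wild-type and 0.25 in heterozygote hosts, gave 0.27 and 0.34 (adjusted p = 0.798 and 0.848). Both Keap1 probe sets thus missed the threshold, and they gave different sizes.

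Slc7a11 encodes the transporter that exchanges glutamate for cystine, the raw material of glutathione. Its brighter probe set had a median of 4.86 in irradiated and 4.75 in sham wild-type hosts, and of 4.83 in irradiated and 4.55 in sham heterozygote hosts, all below 5.83. One tumor exceeded that median, a sham-irradiated wild-type one (replicate 46) at 6.30. In a fit of all 18194 genes without the filter the log2 fold change was -0.007 ± 0.14 in wild-type and 0.28 ± 0.17 in heterozygote hosts (SE, adjusted p = 0.995 and 0.912). At such dim signals a difference in the transcript may not be detectable.

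Gclc and Gclm encode the catalytic and the modifier subunit of the ligase that makes the first step of glutathione synthesis. Gclc was at 8.0, 8.72 and 11.71 in irradiated and 8.18, 8.84 and 10.09 in sham wild-type hosts, and 8 of 23 irradiated tumors were above the sham median. The log2 fold change was 0.06 ± 0.23 (SE, adjusted p = 0.979). In heterozygote hosts it was at 7.96, 8.47 and 9.25 in irradiated and 8.03, 8.72 and 9.58 in sham tumors, with 5 of 18 irradiated tumors above the sham median and a log2 fold change of -0.27 ± 0.28 (SE, adjusted p = 0.950). It was -0.10 without sham replicate 52, -0.15 without sham replicate 58 and -0.41 without sham replicate 30. A second Gclc probe set followed the first closely, with r of 0.95 and 0.96 in wild-type and heterozygote hosts, and its log2 fold changes were 0.03 and -0.22.

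Gclm was at 9.45, 10.33 and 11.53 in irradiated and 9.80, 10.41 and 10.76 in sham wild-type hosts, with 7 of 23 irradiated tumors above the sham median. Heterozygote values were 9.06, 10.09 and 10.93 in irradiated and 9.45, 9.84 and 11.50 in sham tumors. Groups overlapped in both genotypes, and the log2 fold changes were -0.11 ± 0.18 and -0.08 ± 0.22 (SE, adjusted p = 0.950 and 0.979).

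One tumor carried far more Gclc than any other. It was replicate 24 of the irradiated wild-type hosts, at 11.71, against a median of 8.67 and a maximum of 9.91 in the other 22 tumors of its group. The second Gclc probe set also ranked it first of 23, at 11.17 against a median of 8.42. Of the 10 other tested genes within 1 Mb of Gclc, 0 ranked first in this tumor, and the nearest, Elovl5, ranked 3 of 23. Gclm and Nqo1 ranked 22 of 23 there, at 9.47 and 6.61 against medians of 10.34 and 8.03, while Txnrd1 and Srxn1 ranked 6 of 23, at 11.34 and 8.44 against medians of 11.19 and 7.95. The other listed enzymes thus stood on both sides of their group medians in this tumor. This tumor also had the highest T cell score of its group, 7.67 against a median of 5.77 for the others. Over the 32 wild-type tumors Gclc and the T cell score had an r of 0.61 (permutation p adjusted 0.0364) and a rho of 0.29 (adjusted 0.713), and r was 0.20 without the 2 tumors of the most extreme T cell score, so the relation rests on those tumors. Without replicate 24 the log2 fold change of Gclc in wild-type hosts was -0.07.

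Txnrd1 reduces thioredoxin with electrons from NADPH. It was at 10.73, 11.21 and 11.59 in irradiated and 10.85, 10.98 and 11.41 in sham wild-type hosts, and 19 of 23 irradiated tumors were above the sham median. Means were 11.20 ± 0.22 and 11.02 ± 0.19 (SD, n = 23 and 9), a log2 fold change of 0.18 ± 0.10 (SE, unadjusted p = 0.0716, adjusted p = 0.734). In heterozygote hosts the order was the other way, with 10.18, 10.86 and 11.36 in irradiated and 10.55, 11.13 and 11.43 in sham tumors and 2 of 18 irradiated tumors above the sham median. Means were 10.83 ± 0.27 and 11.03 ± 0.33 (SD, n = 18 and 6), a log2 fold change of -0.21 ± 0.12 (SE, unadjusted p = 0.0887, adjusted p = 0.900), and -0.13 without sham replicate 52 (unadjusted p = 0.316). The second Txnrd1 probe set gave 0.29 in wild-type hosts (unadjusted p = 0.0193, adjusted p = 0.552) and 0.01 in heterozygote hosts (adjusted p = 0.995). It correlated with the first at 0.53 and 0.64.

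The difference between the genotypes in the irradiation effect was tested directly as an interaction, heterozygote minus wild type. Txnrd1 gave -0.39 ± 0.15 (SE, unadjusted p = 0.0151, adjusted p = 0.999) and Nfe2l2 -0.44 ± 0.20 (SE, unadjusted p = 0.0305, adjusted p = 0.999), and 0 of 7 genes passed (0% of all genes). These 2 were the genes with an unadjusted p under 0.05, against 4.84% of all genes. With 18S as a covariate the Nfe2l2 difference was -0.29 (unadjusted p = 0.130), and that of Txnrd1 with array weights was -0.24 (unadjusted p = 0.139). Leaving out each of the 56 arrays in turn gave -0.51 to -0.38 for Nfe2l2 and -0.48 to -0.31 for Txnrd1. The unadjusted limma p stayed under 0.05 in 52 and 55 of these fits, and the lowest adjusted p was 0.842 and 0.815. The other 5 genes had differences from -0.32 (Gclc) to 0.31 (Nqo1), each with an interval across 0. Leaving out single arrays gave -0.48 to -0.16 for Gclc, with the smallest size without sham heterozygote replicate 52, and 0.12 to 0.53 for Nqo1, without sham heterozygote replicates 15 and 58.

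Srxn1 repairs peroxiredoxins that have been inactivated by too much peroxide. It was at 6.76, 7.97 and 9.58 in irradiated and 6.44, 8.28 and 9.21 in sham wild-type hosts, a log2 fold change of -0.08 ± 0.25 (SE, adjusted p = 0.975). Heterozygote values were 7.25, 7.93 and 9.03 in irradiated and 7.38, 7.87 and 9.20 in sham tumors, a log2 fold change of -0.05 ± 0.30 (SE, adjusted p = 0.990). Irradiated and sham tumors covered nearly the same range in both genotypes. Of its 3 other probe sets, 2 followed it (r of 0.91 and 0.84 in wild-type and 0.83 and 0.78 in heterozygote hosts) and the third did so weakly (0.24 and 0.26). The 2 that followed it had the opposite order in heterozygote hosts. Their irradiated and sham means there were 6.69 and 6.59, and 4.98 and 4.84, against 7.98 and 8.03 for the chosen probe set. In wild-type hosts they were 6.99 and 7.10, and 5.73 and 5.72.

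Nqo1 reduces quinones in a single step that avoids reactive semiquinones and is widely used as a reporter of Nrf2 activity. It was at 5.39, 8.02 and 9.58 in irradiated and 6.00, 8.002 and 8.59 in sham wild-type hosts, a log2 fold change of 0.13 ± 0.35 (SE, adjusted p = 0.971). In heterozygote hosts it was at 5.89, 7.15 and 8.74 in irradiated and 5.92, 6.80 and 7.96 in sham tumors, with 13 of 18 irradiated tumors above the sham median and a log2 fold change of 0.43 ± 0.42 (SE, 95% interval -0.41 to 1.27, adjusted p = 0.936). It was 0.25 without sham replicate 15 or 19 and 0.65 without sham replicate 58.

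The listed genes differed widely in how much they varied among tumors of one group. Nqo1 varied most, with a within-group SD of 0.95 in wild-type and 0.85 in heterozygote hosts, higher than that of 87.5% and 86.2% of all genes tested. From the lowest to the highest wild-type tumor its signal spanned 18.2-fold, and that of Gclc 13.1-fold and of Srxn1 8.83-fold. The span of Gclc rests on replicate 24, without which its highest wild-type value was 10.09 and not 11.71. Txnrd1 varied least in wild-type hosts, with an SD of 0.21, which 5.81% of genes undercut, and a span of 1.83-fold. Nfe2l2 and Keap1 were also steady there, with SDs of 0.29 each, where the median gene had 0.42. In heterozygote hosts Keap1 and Txnrd1 had the lowest SDs of the 7, both 0.28, against a median of 0.38.

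No pair of the 7 genes was shown to vary together among tumors. Each pair was correlated across tumors on values centred on the group means, 21 pairs per genotype, with 100000 permutations within group. In wild-type hosts r ran from -0.44 to 0.27, with 10 of 21 positive, and in heterozygote hosts from -0.45 to 0.53, with 11 of 21 positive. After adjustment over the 21 pairs 0 passed in either genotype. At an unadjusted p under 0.05 there were 4 pairs in wild-type hosts, all negative, and 2 in heterozygote hosts, 1 of them positive. The positive one joined Txnrd1 and Nqo1 in heterozygote hosts (r 0.53, rho 0.58, permutation p adjusted 0.219 and 0.108, r 0.49 without 2 tumors). The same pair had an r of 0.11 in wild-type hosts. The negative one in heterozygote hosts joined Keap1 and Txnrd1 (r -0.45, rho -0.43, adjusted p = 0.289 and 0.323, r -0.42 without 2 tumors). Among the wild-type pairs r was most negative for Gclc and Nqo1 (r -0.44, rho -0.39, adjusted p = 0.213 and 0.212, r -0.57 without 2 tumors). Gclc and Gclm, subunits of one enzyme, had an r of -0.03 and a rho of 0.23 in wild-type hosts (adjusted p = 0.859 and 0.566), and r was 0.43 without the 2 tumors of the most extreme Gclc level, so the value near 0 rests on those tumors. In heterozygote hosts r was 0.42 and rho 0.35 (adjusted p = 0.289 and 0.383), and r was 0.48 without 2 tumors.

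**Figure D3:**
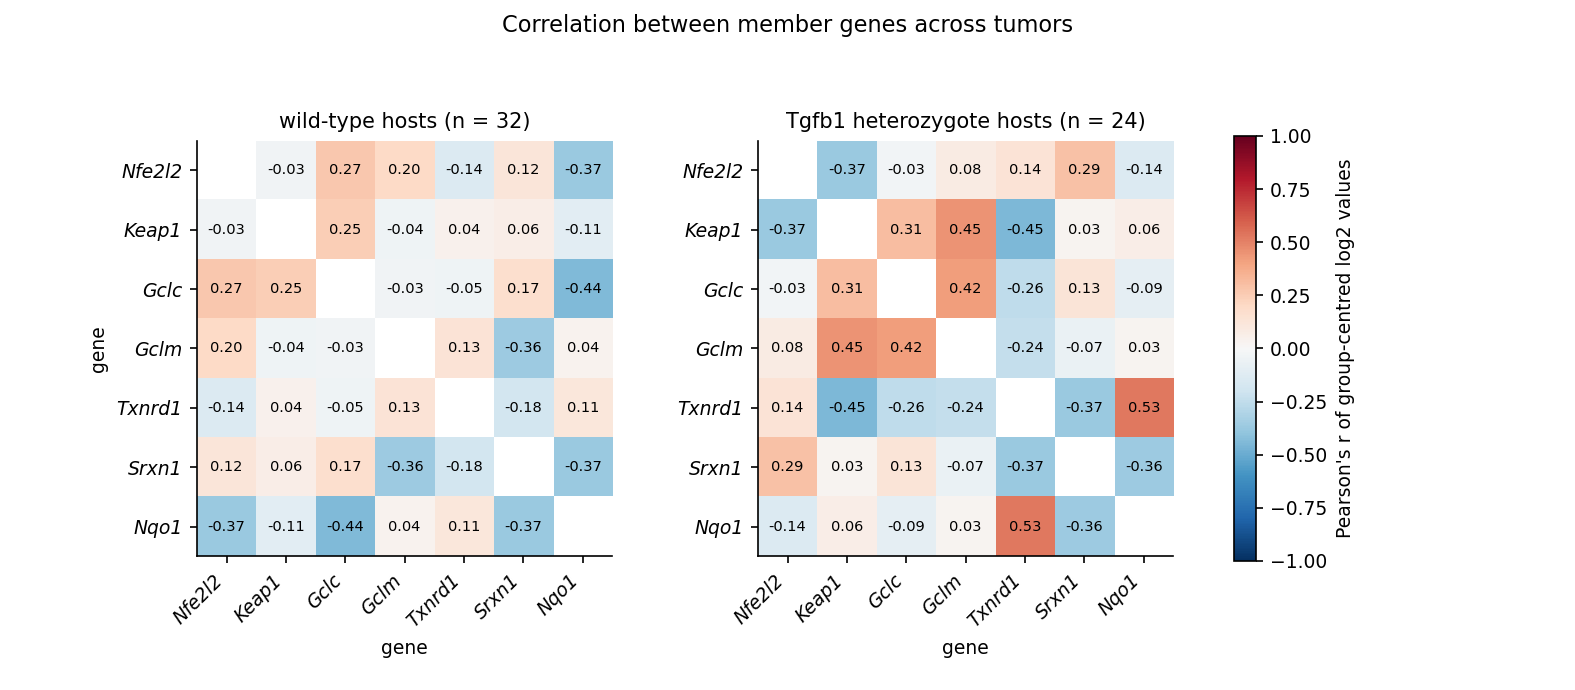
Pearson's r between each pair of the 7 tested genes across tumors of wild-type (left, n = 32) and Tgfb1 heterozygote hosts (right, n = 24), on log2 values centred on the group means; red is positive and blue negative. Values run from -0.44 to 0.27 on the left and from -0.45 to 0.53 on the right, with positive and negative cells mixed in both panels.

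Srxn1 was high in most of the tumors that stood apart with a low epithelial score. In wild-type hosts its median was 9.14 in the 7 tumors of low epithelial score and 7.93 in the other 25, and 5 of the 7 were above every one of the 25. In heterozygote hosts it was 8.80 in the 4 low tumors and 7.79 in the other 20, and 3 of the 4 were above all 20. Nqo1 had the opposite order, with medians of 6.95 in the 7 and 8.05 in the 25 wild-type tumors, and of 5.96 in the 4 and 7.19 in the 20 heterozygote tumors, although its ranges overlapped. These sets of tumors were drawn from the data, not from the labels, and are described without a test. How many of all genes tested separate the same tumors in this way was not counted. The counts therefore do not show a trait particular to Srxn1 or Nqo1. The low tumors were not alike in other scores. Irradiated wild-type replicate 16, with Srxn1 at 6.76, had a basal epithelial score of 10.39, and sham heterozygote replicate 19 had 11.26. The other low tumors had 5.40 to 6.60. Skeletal muscle scores were 9.96 and 11.60 in irradiated wild-type replicates 11 and 59 and 10.88 in sham replicate 60. They were 4.55 to 6.31 in the other low wild-type tumors. Within the 25 wild-type tumors of high score Srxn1 ran the other way, with an r of 0.53 and a rho of 0.56 with the epithelial score (permutation p adjusted 0.331 and 0.251), and within the 20 heterozygote tumors r was -0.04 and rho 0.08. For Nqo1 r was -0.07 within the 25 and -0.50 within the 20 (adjusted p = 0.870 and 0.285). No r over all tumors is given with this score, since the tumors are spread unevenly on it.

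Over all wild-type tumors, those of low epithelial score included, Srxn1 moved with markers of non-epithelial cells. Of 98 relations between the 7 genes and 14 control and marker measures, 5 passed in wild-type hosts by both r and rho, 4 of them with Srxn1 and the other that of Nfe2l2 with 18S. The share of all genes tested with such relations was not computed. The 4 scores related to Srxn1 share tumors and are not separate results. Irradiated wild-type replicate 25, of low epithelial score, had the highest macrophage (11.68), neutrophil (11.10) and fibroblast and matrix score (12.14) of its group. The lists held 10 of 10 macrophage, 4 of 6 neutrophil, 10 of 10 fibroblast and matrix and 6 of 6 endothelial markers as measured genes. For the macrophage score, r was 0.70 and rho 0.61 (permutation p adjusted 0.00196 and 0.0111, r 0.58 without 2 tumors). For the neutrophil score they were 0.66 and 0.53 (adjusted 0.00196 and 0.0431, r 0.53 without 2), for the fibroblast and matrix score 0.65 and 0.57 (adjusted 0.00327 and 0.0294, r 0.52), and for the endothelial score 0.61 and 0.63 (adjusted 0.0135 and 0.0111, r 0.67). Among the 25 wild-type tumors of high epithelial score r was 0.37, 0.26, 0.20 and 0.36 in that order, and 0 of 98 relations passed. Between irradiated and sham wild-type hosts these scores did not pass a test of their own (macrophage 10.24 ± 0.50 and 10.42 ± 0.68, SD, n = 23 and 9, exact permutation p adjusted 0.686). In heterozygote hosts 0 of 98 passed by both r and rho. With the macrophage score Srxn1 had an r of 0.50 there (adjusted p = 0.132), and -0.15 among the 20 tumors of high epithelial score. Keap1 and the basal epithelial score in heterozygote hosts passed by rho (0.71, adjusted p = 0.0402) and not by r (0.66, adjusted p = 0.0598, r 0.52 without 2 tumors), and r was 0.20 in wild-type hosts. Across all tumors of a genotype, the epithelial score passed by r and not by rho with Srxn1 in wild-type hosts (adjusted p = 0.0335 and 0.806). The same held for Srxn1 in heterozygote hosts (0.0402 and 0.275) and for Nqo1 in wild-type hosts (0.0178 and 0.713).

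**Figure D4:**
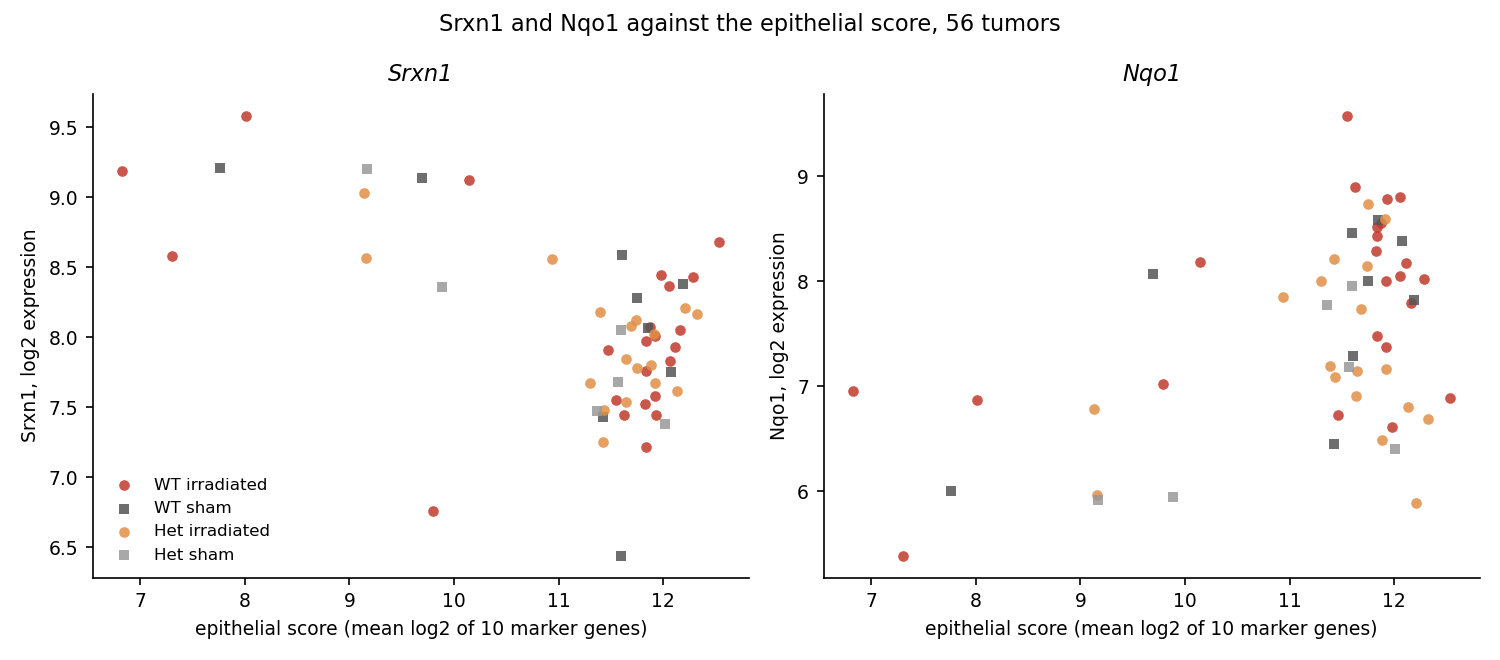
Log2 expression of Srxn1 (left) and Nqo1 (right) against the mean log2 value of 10 epithelial markers in 56 tumors; circles are irradiated and squares sham-irradiated hosts, in red and dark grey for wild-type and orange and light grey for Tgfb1 heterozygote hosts. The 11 tumors with a score up to 10.14 lie on the left. Most of them were high for Srxn1 (medians 9.14 and 8.80 in wild-type and heterozygote hosts) and low for Nqo1 (6.95 and 5.96).

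For each gene, the tested genes most like it were ranked by the lower of their 2 within-genotype correlations. This is a description over 32 and 24 tumors that share arrays and preparation. For Nfe2l2 they were Sp3 (r 0.68 in wild-type and 0.67 in heterozygote hosts), Snap23 and Plekha3, all on chromosome 2 like Nfe2l2 itself. For Keap1 they were Uba7 (0.67 and 0.68), Kri1 and Tmem205, all on chromosome 9, with Kri1 0.04 Mb and Tmem205 0.69 Mb from it. For Txnrd1 they were D10Wsu102e (0.60 and 0.76), Metap2 and Vezt, all on chromosome 10, the first 0.53 Mb away. The genes most like the other 4 lay mostly elsewhere in the genome. They were Def6, Cd207 and Slc35g1 for Gclc (lower r 0.61, 0.60 and 0.59), Plcxd1, Clec11a and Fgfr2 for Gclm (0.59, 0.58 and 0.53), Hmga2-ps1, Capn2 and Slc39a13 for Srxn1 (0.80, 0.80 and 0.77) and Slc38a3, Gm7694 and Scrg1 for Nqo1 (0.73, 0.70 and 0.67).

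Extending this to the 20 most alike genes, a number chosen after seeing the data, 15 of 20 for Keap1 were on its own chromosome, which holds 5.59% of the genes tested. For Txnrd1 it was 14 of 20 (4.78%) and for Nfe2l2 8 of 20 (7.88%). The counts were 4 for Gclc, 2 for Srxn1, 1 for Nqo1 and 0 for Gclm. Genes within 5 Mb of Keap1 had a median of 0.23 for the lower correlation, against 0.07 for the rest of its chromosome and -0.09 for other chromosomes. Keap1 had the highest such median. Within 5 Mb it was 0.12 for Nfe2l2 and Txnrd1, 0.01 for Gclm, -0.02 for Gclc, -0.06 for Nqo1 and -0.08 for Srxn1. Taking the lower of 2 correlations pulls all these medians down.

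**Figure D5:**
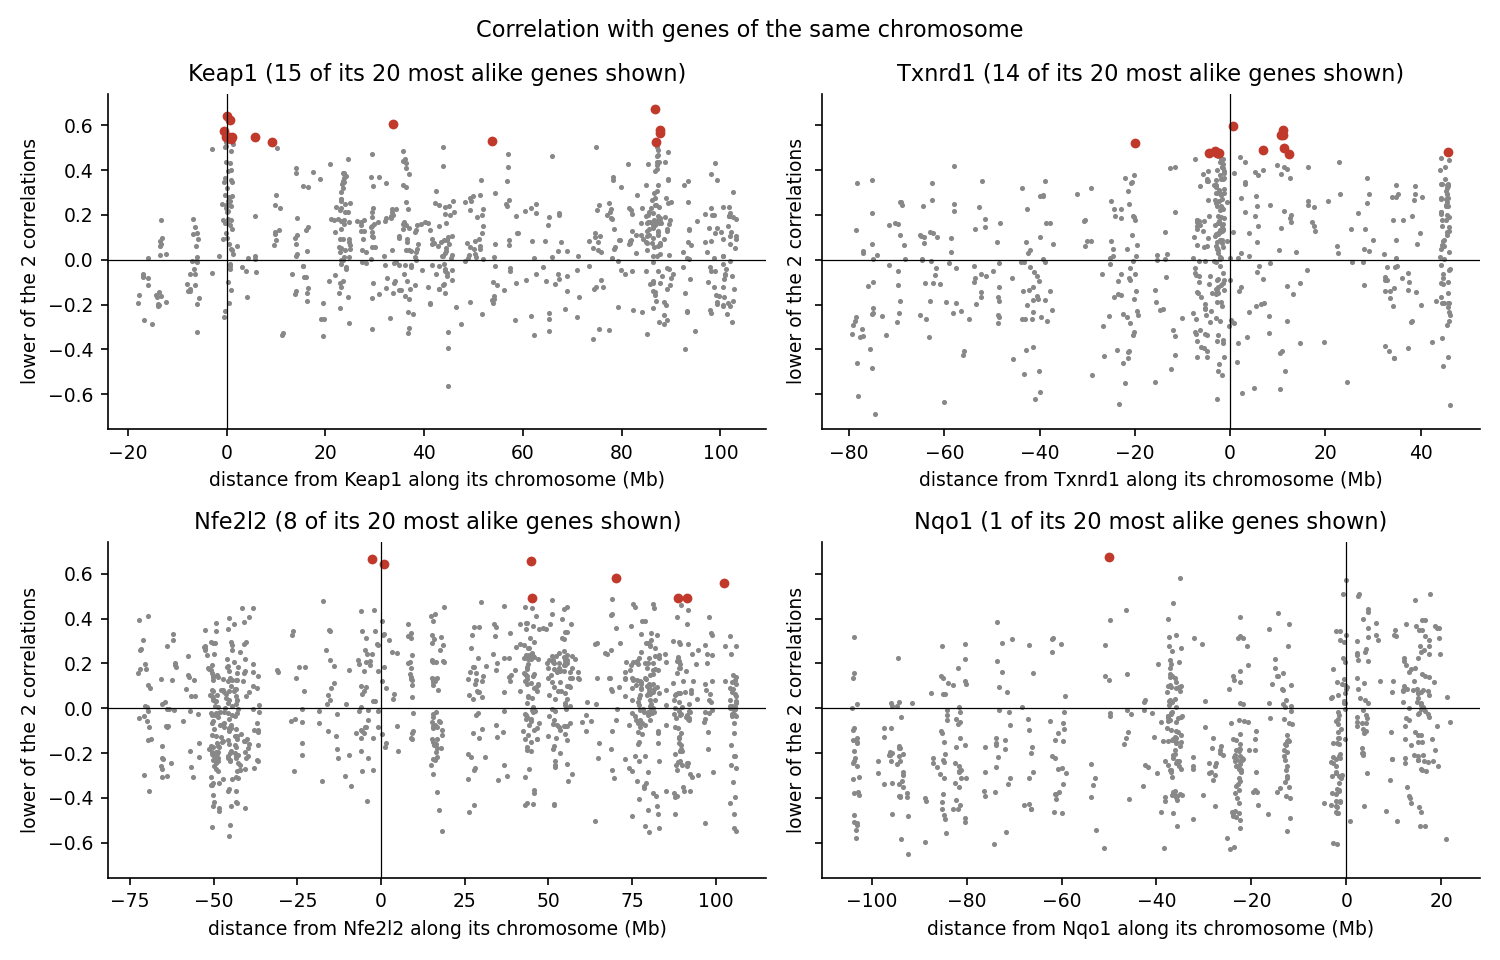
The lower of the wild-type and heterozygote correlations (vertical axis) of each tested gene on the chromosome of Keap1, Txnrd1, Nfe2l2 and Nqo1, against its distance from that gene in Mb (horizontal axis). Red points belong to the 20 most alike genes over all chromosomes, 15, 14, 8 and 1 of which lie on the gene's own chromosome, and 7 of those of Keap1 lie within 5 Mb.

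The wider pathway was described with 7 lists of other genes, and in each of the 4 contrasts 0 genes of any list passed. Of all genes tested, 0% passed in wild-type hosts, 0% in heterozygote hosts, 0.00799% on average and 0% for the difference between genotypes. Of 28 measured glutathione enzymes and transporters, 12 had a positive and 16 a negative log2 fold change in wild-type hosts (median -0.03), and 13 and 15 in heterozygote hosts (median -0.01). Gsr, the glutathione reductase that returns oxidised glutathione to use, was at 9.53 ± 0.61 in irradiated and 9.17 ± 0.43 in sham wild-type hosts and at 9.47 ± 0.74 and 8.87 ± 0.35 in irradiated and sham heterozygote hosts (SD, n = 23, 9, 18 and 6), with an average log2 fold change of 0.48 ± 0.19 (SE, adjusted p = 0.487). Gstm2, a glutathione transferase gene, was at 6.90 ± 1.36 in irradiated and 7.92 ± 1.13 in sham wild-type hosts (adjusted p = 0.691). Gstt2, another transferase, had a log2 fold change of -0.86 there (adjusted p = 0.644).

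Among 13 measured thioredoxin and peroxiredoxin genes, 9 were positive and 4 negative in wild-type hosts (median 0.06) and 6 and 7 in heterozygote hosts (median -0.01). Txn1, the thioredoxin that Txnrd1 reduces, was at 13.37 ± 0.13 in irradiated and 13.21 ± 0.21 in sham wild-type hosts (log2 fold change 0.16 ± 0.07, SE, adjusted p = 0.638). Sesn2, a stress-induced gene linked to peroxiredoxin recycling, had 0.23 in wild-type (adjusted p = 0.705) and -0.18 in heterozygote hosts (adjusted p = 0.924), and the difference between genotypes was -0.41 ± 0.18 (SE, adjusted p = 0.999). Of 12 NADPH-supplying enzymes, 5 were positive and 7 negative in wild-type and 7 and 5 in heterozygote hosts (medians -0.03 and 0.06). In that list Rpe, an enzyme of the pentose phosphate pathway, had the lowest p in wild-type hosts, at 0.40 ± 0.19 (SE, adjusted p = 0.677).

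Of 15 measured quinone, heme, iron and carbonyl targets, 4 were positive and 11 negative in wild-type hosts (median -0.08), and 11 and 4 in heterozygote hosts (median 0.03). Hmox1, heme oxygenase 1 and a classical Nrf2 target, had the lowest p of any gene of the 7 lists in wild-type hosts (log2 fold change -1.52 ± 0.35, SE, adjusted p = 0.238). It was at 6.18, 7.76 and 9.06 (lowest, median and highest) in irradiated and 7.10, 8.75 and 12.84 in sham wild-type hosts, so the groups overlapped. In heterozygote hosts it was at 7.73 ± 0.52 in irradiated and 7.59 ± 0.97 in sham tumors (SD, n = 18 and 6), and the difference between genotypes was 1.66 ± 0.55 (SE, adjusted p = 0.999). Blvrb, a biliverdin reductase gene, had -0.33 in wild-type hosts (adjusted p = 0.677), where Alas2 was also lower in irradiated hosts. The part of erythroid RNA in these values was not tested. Fth1, the ferritin heavy chain, and Cbr3, a carbonyl reductase, had 0.21 and -1.04 in heterozygote hosts (adjusted p = 0.817 each).

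The remaining lists gave no call either. Of 4 superoxide and peroxide removing enzymes, 2 were positive and 2 negative in each genotype, and Cat, catalase, had the lowest p in wild-type hosts at -0.22 (adjusted p = 0.845). Of 14 measured partners, relatives and control genes of Nrf2, 9 were positive and 5 negative in wild-type and 8 and 6 in heterozygote hosts. Maff, a small Maf partner, had -0.36 in wild-type hosts (adjusted p = 0.773), and Nfe2l1, the relative Nrf1, had 0.34 in heterozygote hosts (adjusted p = 0.838). Of 14 measured amino acid response genes, which share cystine and serine supply with glutathione synthesis, 4 were positive and 10 negative in wild-type and 7 each way in heterozygote hosts. Slc7a1, a cationic amino acid transporter gene, was at 10.41 ± 0.59 in irradiated and 10.92 ± 0.33 in sham wild-type hosts and at 10.44 ± 0.41 and 10.85 ± 0.44 in irradiated and sham heterozygote hosts (SD, n = 23, 9, 18 and 6). Its average log2 fold change was -0.46 ± 0.15 (SE, adjusted p = 0.369). Psat1, an enzyme of serine synthesis, had 0.55 in wild-type hosts (adjusted p = 0.666) and a difference between genotypes of -0.78 (adjusted p = 0.999).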

How the data were processed

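Total RNA of 56 tumors (100 ng each) was labelled for Affymetrix 3' arrays, per the labels' protocols. The authors deposited log2 values per probe set made with RMA (background correction, quantile normalization and probe summary), per the submitters' processing notes, which name no RMA version. Signal per probe was not used, so the precision rests on the number of arrays. No 2 columns were identical (highest correlation 0.990). Groups came from sample titles. No label ties tumors to a host or donor, so the p-values reflect only how these tumors scatter, which may in part be technical.

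The platform table named 1 gene for 34958 probe sets, several for 932 and none here for 9211; only the first kind was used. GRCm38.p6 matched 12467 of 12508 genes tested. limma 3.58.1 in R 4.3.3 (lmFit, eBayes) fitted 4 group means to all 56 arrays, with Benjamini-Hochberg adjustment over all genes and a threshold of 0.05; it was tested on simulated data. Scores are mean log2 values of the measured markers of a list. Correlations used 100000 permutations within group. The plan counted 36 pairs; 21 could be formed because G6pdx and Slc7a11 were not among the tested genes. Plots used matplotlib 3.10.9 in Python 3.11.15.

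The named genes were the 9 chosen ones, from each list the 2 of lowest p for a contrast (of which the text gives a part), and for likeness the 3 most alike genes; the second probe sets and the Gclc tumor were taken up after their values were seen. The genes and lists were chosen with earlier results of these data known. Alternatives were no filter, a stricter filter (28 arrays), all probe sets, joint quantile normalization, trended robust eBayes, array weights, 3 covariates, leaving out low 18S arrays or each array in turn, and only the 2 groups compared; leaving out arrays of low epithelial score was added after seeing the data.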

Additional observations from a re-analysis of the deposited data

Results flagged for a closer look

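Slc7a11, the cystine transporter gene, had 1 tumor far from the rest of its group: sham-irradiated wild-type replicate 46 was at 6.30, while the other 8 tumors of that group were much closer to each other (group median 4.75). This was 1 of 16 groups of 4 to 10 tumors examined in this way, and chance marks about 1 in 20. Replicate 46 also had the highest Alas2 (12.68), endothelial score (11.32) and adipocyte score (9.71) of its group, and a low epithelial score (9.69). It is part of the sham group in the Alas2 difference given above. The part of its cell content in the Slc7a11 value was not tested. Without this tumor the log2 fold change of Slc7a11 in wild-type hosts was 0.16.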

How the results depend on the processing

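Of 2152 values of single genes under the alternatives, 2005 kept their direction and their side of the threshold. The other 147 turned sign, 42 of them other than by leaving out 1 array. Of all these values 0 passed the threshold, and the lowest adjusted p of any of the 8 measured antioxidant genes was 0.292. Many of the values could not change direction, so the tally does not measure stability. Leaving out an array of 1 host genotype does not alter the log2 fold change in the other. The filters, the use of all probe sets, trended robust eBayes and the fit of only the 2 groups do not alter it for the chosen probe set. The count of these genes called was 0 in all 4 comparisons under every alternative run. Of all genes, the main fit called 0% in wild-type hosts, 0% in heterozygote hosts, 0.00799% on average and 0% for the difference. The cause of the turned signs was not tested. In wild-type hosts they were, with joint quantile normalization, Keap1 0.0047; with array weights, Keap1 0.022, Gclc -0.013 and Slc7a11 0.058; with 18S as a covariate, Keap1 0.086, Srxn1 0.13 and Slc7a11 0.023; without low 18S arrays, Keap1 0.14 and Gclc -0.20; and without arrays of low epithelial score, Keap1 0.10, Srxn1 0.054 and Slc7a11 0.18. In heterozygote hosts they were Keap1 -0.0046 (quantile), -0.037 (array weights), -0.024 (3' minus 5' covariate) and -0.018 (without low epithelial arrays), and Srxn1 0.016 (array weights), 0.11 (3' minus 5'), 0.085 (epithelial covariate) and 0.23 (without low epithelial arrays). For the average they were Nfe2l2 -0.012 (18S) and -0.034 (without low 18S), Keap1 -0.0073 (array weights) and -0.012 (3' minus 5'), Txnrd1 0.022 (array weights), and Srxn1 0.066 (18S), 0.016 (3' minus 5'), 0.012 (epithelial covariate) and 0.14 (without low epithelial arrays). For the difference between genotypes they were Keap1 -0.0092 (quantile), -0.059 (array weights), -0.054 (18S), -0.024 (3' minus 5'), -0.043 (without low 18S) and -0.12 (without low epithelial arrays), Gclm -0.14 (array weights), -0.087 (3' minus 5'), -0.019 (without low 18S) and -0.23 (without low epithelial arrays), Srxn1 -0.0071 (quantile) and -0.13 (18S), and Nqo1 -0.11 (without low epithelial arrays), against 0.31 on all arrays. Without low epithelial arrays the median difference over the 7 tested listed genes was -0.23, against 0.01 on all arrays, so this median moved. Leaving out each array in turn gave, in wild-type hosts, -0.040 to 0.058 for Keap1, -0.055 to 0.16 for Slc7a11, -0.071 to 0.21 for Gclc, -0.29 to 0.055 for Srxn1 and -0.084 to 0.24 for Nqo1; in heterozygote hosts, -0.10 to 0.10 for Keap1, -0.23 to 0.18 for Gclm and -0.18 to 0.19 for Srxn1; for the average, -0.049 to 0.049 for Keap1, -0.17 to 0.037 for Gclm, -0.059 to 0.028 for Txnrd1 and -0.17 to 0.054 for Srxn1; and for the difference, -0.10 to 0.10 for Keap1, -0.13 to 0.29 for Gclm and -0.10 to 0.27 for Srxn1. Without a change of sign, the ranges wide enough to move a value over 1.5 times were -0.17 to -0.054 for Gclm in wild-type hosts; -0.18 to -0.054 for Nfe2l2, -0.41 to -0.10 for Gclc, -0.30 to -0.13 for Txnrd1 and 0.25 to 0.65 for Nqo1 in heterozygote hosts; 0.10 to 0.22 for Slc7a11, -0.18 to -0.023 for Gclc and 0.18 to 0.39 for Nqo1 on average; and 0.12 to 0.39 for Slc7a11, -0.48 to -0.16 for Gclc and 0.12 to 0.53 for Nqo1 for the difference. Nfe2l2 in wild-type hosts stayed at 0.28 to 0.38 with an unadjusted p under 0.05 each time. No paired analysis was possible because the replicate numbers of the titles do not recur between the groups compared. Slc7a11 lies near background, which limits what a difference there can show.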
